A study of Mus musculus with 4 samples.

Results

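A set of 10 genes that act as regulators of the epithelial-mesenchymal transition (EMT) were followed in C22, a line of mouse Club cells made immortal, after exposure to norepinephrine (NE), the transmitter of sympathetic nerves. They were taken by symbol from the deposited table of raw read counts and make up 10 of its 22063 gene identifiers. They are Snai1, Snai2, Zeb1, Zeb2, Twist1, Twist2 and Prrx1, which drive the mesenchymal state, and Esrp1, Esrp2 and Ovol1, which hold the epithelial one. The NE libraries (n = 2) came from wild-type C22 cells given NE at 10 µM for 3 h, and the vehicle libraries (n = 2) from the same line given vehicle for as long. The series text calls the control cells untreated, while the sample labels call them vehicle control. All libraries come from 1 cell line grown in low serum, and the labels do not say whether the replicates of a group were separate cultures. P-values therefore measure only the spread between these libraries, which may be technical.

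In an epithelial-mesenchymal transition, cells give up junctions and polarity and take on the shape, matrix and motility of mesenchymal cells. The zinc finger proteins SNAI1, SNAI2, ZEB1 and ZEB2 bind E-boxes in DNA and repress genes such as that of E-cadherin, while TWIST1, TWIST2 and PRRX1 are helix-loop-helix and homeodomain factors that switch on mesenchymal programmes. ESRP1 and ESRP2 are RNA-binding proteins that set epithelial splicing patterns, and OVOL1 is a zinc finger repressor that keeps epithelial cells from crossing over.

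The 7 genes of the mesenchymal side were all present, whereas on the epithelial side Esrp1 had 0 counts, Ovol1 had few and Esrp2 lay below them in level per kb. None of the 8 members that could be tested was called between NE and vehicle. Levels are given as CPM, a gene's counts put on the same scale in every library, and as CPM per kb of transcript where genes are set against each other. A gene was called at an adjusted p under 0.05 in edgeR's quasi-likelihood test, with Benjamini-Hochberg adjustment over the 11419 genes with enough counts to test. By that rule 179 genes, 1.57% of those tested, were called, of which 39 (0.342%) were higher and 140 (1.23%) lower in NE. The share of higher calls depended on the scaling: with total counts as scaling, 12 genes were called higher and 120 lower. Member and list counts are read against these shares. Members and lists were chosen with earlier results of these data known, so such readings are descriptions and not tests.

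Total counts were 15657173 and 18491334 in the NE libraries, against 14820258 and 14783176 in the vehicle libraries. No pair of libraries agreed within sampling noise (chi-square per degree of freedom 4.53 between the NE libraries, 6.52 between the vehicle libraries and 6.14 to 13.4 across groups). Longer transcripts took more of the counts in the vehicle libraries: log2 CPM increased by 0.23 and 0.20 per doubling of transcript length in the NE libraries, against 0.28 and 0.27 in the vehicle libraries. Of 10 Club cell markers 7 had 0 counts and 2 could be tested; the secretoglobin gene Scgb1a1 had 2 counts in all, and Scgb3a1, Scgb3a2, Cyp2f2 and Sftpb were at 0. The summed level of the list was 774 and 790.2 CPM in NE, against 959 and 768 CPM in vehicle, nearly all of it Aldh1a1. The label of a Club cell is thus not borne out by the defining secretory markers, and the cells are called C22 cells here. Of 10 fibroblast markers 6 could be tested, and Thy1 and Lum were at 0, with a summed level of 1818 and 1839 CPM in NE against 2250.2 and 1902 CPM in vehicle. Their summed groups did not overlap, and 2 of the 6, Col1a1 and Col3a1, had an unadjusted edgeR p under 0.05. Both were lower in NE, beside 9.82% of all tested genes in that direction. Summed leukocyte markers (8 genes, Ptprc at 1 count in all) held 12.2 and 15.2 CPM in NE against 6.25 and 15.4 CPM in vehicle. Endothelial markers (8 genes) held 2.18 and 1.26 CPM in NE against 3.76 and 1.81 CPM in vehicle. Smooth muscle markers (7 genes) held 5.19 and 6.94 CPM in NE against 7.66 and 4.23 CPM in vehicle. A list of ciliated, basal and alveolar markers (7 genes) held 82.2 and 79.7 CPM in NE against 58.9 and 75.5 CPM in vehicle, so that its groups did not overlap. The part of these markers in the results was not tested. In such bulk libraries, fewer cells that express a gene and less RNA of it per cell cannot be told apart.

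Ordered by level per length over all 4 libraries, the helix-loop-helix genes came first. Twist2 averaged 18.7 CPM per kb (lowest library 17.4, highest 19.5) and Twist1 15.5 CPM per kb (14.4 to 18.2), and their ranges overlapped. Next came Prrx1 at 9.80 CPM per kb (7.74 to 10.7), whose range lay below that of Twist1. Snai2 at 9.10 CPM per kb (7.29 to 10.2), Zeb1 at 8.59 (8.17 to 9.32), Snai1 at 7.85 (7.0 to 8.89) and Zeb2 at 7.26 (6.97 to 7.42) each overlapped the neighbour above. The 5 genes from Prrx1 to Zeb2 thus formed a run with no gap between neighbours. Esrp2 stood apart from it at 3.06 CPM per kb (2.77 to 3.38), and Ovol1 came last of the members with counts, at 0.0744 CPM per kb. Against all tested genes, Twist2 lay above 59.3% and Esrp2 above 18.4% in level per kb. Lengths are medians of a gene's annotated transcripts. With the longest transcript as length (an alternative chosen after seeing the data), Twist2 was at 14.2, Prrx1 at 7.49 and Zeb2 at 3.22 CPM per kb, so that Twist1 came first and Zeb2 lay next to Esrp2.

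**Figure D1:**
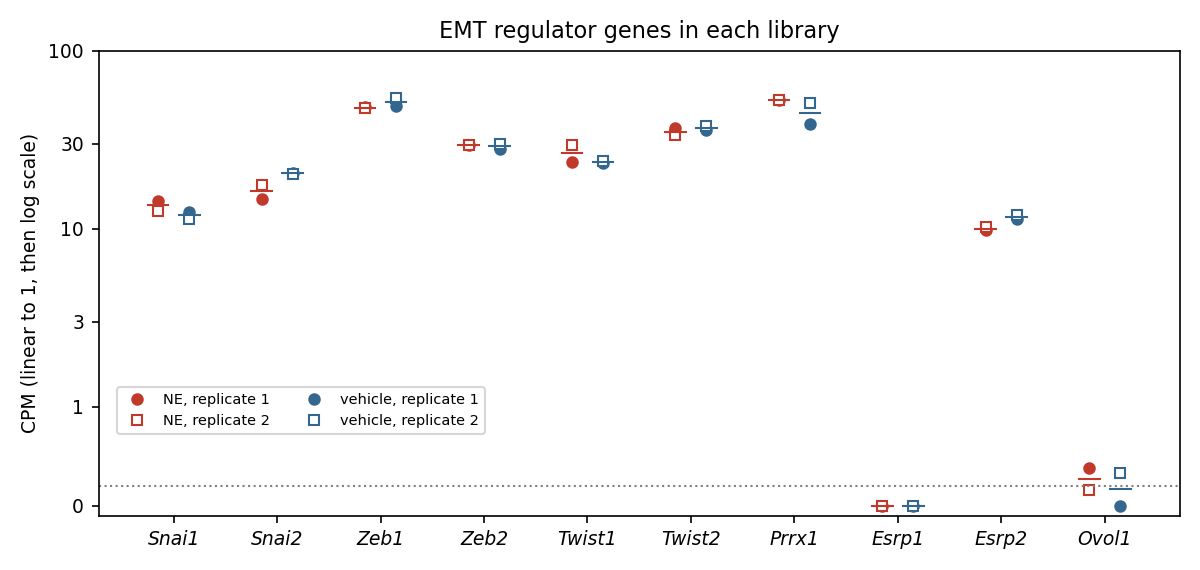
CPM of the 10 EMT regulator genes in each library (filled circles replicate 1, open squares replicate 2, short lines the group means; the axis is linear up to 1 CPM and logarithmic above), NE to the left of vehicle. The dotted line marks 0.202 CPM, the highest level that 3 counts in 1 library give. The 7 mesenchymal regulators and Esrp2 lie near or above 10 CPM in every library, while Ovol1 is near the line and Esrp1 at 0.

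The SNAI genes come first among the members, as the earliest repressors in many transitions. Snai1 (ENSMUSG00000042821), a labile zinc finger repressor of E-cadherin, had 225 and 231 counts in the NE libraries, against 186 and 169 in the vehicle libraries. On the CPM scale these were 14.4 and 12.6 CPM in NE, against 12.5 and 11.3 CPM in vehicle. Both NE libraries lay above both vehicle libraries, the nearest pair by a small margin. The log2 fold change was 0.18 ± 0.15 (SE; 95% interval -0.14 to 0.50; edgeR adjusted p = 0.58), so Snai1 was not called. As a fold of the vehicle level, that interval spans 0.907 to 1.41.

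Snai2 (ENSMUSG00000022676), the relative that also marks neural crest and basal epithelia, went the other way in value. It held 14.7 and 17.7 CPM in NE, against 20.7 and 20.4 CPM in vehicle. Both NE libraries were below both vehicle libraries, and the NE libraries differed from each other by more than the vehicle libraries did. Snai2 averaged 16.2 ± 2.10 CPM in NE and 20.6 ± 0.208 CPM in vehicle (SD, n = 2 each). Its log2 fold change was -0.34 ± 0.13 (95% interval -0.61 to -0.07), with an unadjusted p of 0.0181 and an edgeR adjusted p of 0.184. With one member of the pair higher and the other lower in value, the ratio of Snai2 to Snai1 per kb was 0.82 and 1.12 in the NE libraries, against 1.33 and 1.44 in the vehicle libraries. This ratio and those between other members were formed with the values known and have no test.

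Zeb1 and Zeb2 encode large zinc finger repressors that bind paired E-boxes and oppose the miR-200 family. Zeb1 (ENSMUSG00000024238) had 48.6 and 47.4 CPM in NE, against 49.2 and 54.04 CPM in vehicle. Zeb2 (ENSMUSG00000026872) had 29.7 and 29.5 CPM in NE, against 28.2 and 30.01 CPM in vehicle. The NE libraries lay just below both vehicle libraries for Zeb1 and between them for Zeb2. On the log2 scale the fold change was -0.11 ± 0.09 for Zeb1 (95% interval -0.29 to 0.08; edgeR adjusted p = 0.578) and 0.03 ± 0.10 for Zeb2 (-0.19 to 0.24; adjusted p = 0.927). Per kb, Zeb1 stood at 1.14 and 1.12 times Zeb2 in NE, against 1.22 and 1.255 times in vehicle. Zeb2 shares 1.99% of its 50-base stretches with the antisense gene Zeb2os (2.26% with any other gene). Strand handling is not stated, so reads of Zeb2 and Zeb2os cannot be told apart where they overlap.

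Twist1 (ENSMUSG00000035799), a helix-loop-helix factor of mesoderm and neural crest, had 370 and 541 counts in NE, against 348 and 359 in vehicle. In CPM this was 23.7 and 29.6 in NE, against 23.4 and 24.1 in vehicle. Only the second NE library lay above the vehicle libraries, and the other fell between them. Twist1 had a log2 fold change of 0.17 ± 0.12 (95% interval -0.08 to 0.42; edgeR adjusted p = 0.489), and of -0.0017 without that second NE library. Twist2 (ENSMUSG00000007805), known for its role in dermis, had 36.8 and 33.4 CPM in NE, against 35.9 and 37.7 CPM in vehicle. Its groups overlapped, with a log2 fold change of -0.07 ± 0.10 (-0.28 to 0.14; adjusted p = 0.77). Twist1 per kb was 0.76 and 1.05 times Twist2 in NE, against 0.77 and 0.76 times in vehicle. Twist2 shares 45.7% of its 50-base stretches with the overlapping gene Gm29100 on the opposite strand, so its level is uncertain, whereas Twist1 shares none with another gene.

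TWIST proteins act as dimers with E proteins, and ID proteins bind the same E proteins and block them. Of 7 such partner genes 6 could be tested. EdgeR, limma voom and DESeq2 (5 with an adjusted p) called 0 of them, and in each tool 0 reached an unadjusted p under 0.05. Tcf4, an E protein gene, was at 57.2 and 52.2 CPM in NE, against 46.3 and 56.1 CPM in vehicle. Id1 was at 98.3 and 94.2 CPM in NE, against 95.6 and 98.1 CPM in vehicle. Both had overlapping groups, with log2 fold changes of 0.09 ± 0.10 (adjusted p = 0.671) and -0.01 ± 0.07 (adjusted p = 0.965).

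Prrx1 (ENSMUSG00000026586), a paired-related homeobox gene of limb and craniofacial mesenchyme, was the member with the largest positive log2 fold change. It had 830 and 965 counts in NE, against 574 and 760 in vehicle, or 53.2 and 52.7 CPM in NE against 38.6 and 51.0 CPM in vehicle. The NE libraries lay close together and above both vehicle libraries, of which the first was well below the second. Prrx1 averaged 53.0 ± 0.327 CPM in NE and 44.8 ± 8.80 CPM in vehicle (SD, n = 2 each). Its log2 fold change was 0.24 ± 0.11 (95% interval 0.01 to 0.47), with an unadjusted p of 0.0433 and an edgeR adjusted p of 0.268. It rested on the first vehicle library: without that library it was 0.05, and without the second vehicle library it was 0.46. Both of these fits leave a single vehicle library, so that group has no spread of its own. Prrx1 per kb was 1.27 and 1.29 times Zeb1 in NE, against 0.91 and 1.10 times in vehicle.

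On the epithelial side Esrp1 (ENSMUSG00000040728), a splicing factor of most epithelia, had 0 counts in all 4 libraries, which allows up to 0.0471 CPM over them together (3 counts, counting error only). Its paralogue Esrp2 (ENSMUSG00000084128) was at 9.80 and 10.2 CPM in NE, against 11.4 and 11.9 CPM in vehicle. Per kb, Esrp2 as counted was 241-fold above the limit for Esrp1, taken at 3 counts over the 4 libraries. That ratio takes every count of Esrp2 as its own and is not a lower bound. Both NE libraries lay below both vehicle libraries for Esrp2. Esrp2 had a log2 fold change of -0.22 ± 0.16 (95% interval -0.55 to 0.12; edgeR adjusted p = 0.504) and was not called. Exons of Esrp2 overlap those of Nfatc3 on the opposite strand, and 3.72% of its 50-base stretches are also found there (5.30% in any other gene). Nfatc3 itself had 2703 and 3012 counts in NE, against 2554 and 2589 in vehicle (log2 fold change -0.03, adjusted p = 0.851). Nfatc3 averaged 46.0 CPM per kb, against 3.06 for Esrp2, and how many of the Esrp2 reads came from Nfatc3 was not tested.

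Ovol1 (ENSMUSG00000024922) had 6 and 3 counts in NE, against 0 and 5 in vehicle. That is 0.384 and 0.164 CPM in NE against 0 and 0.336 CPM in vehicle, with 3 counts in 1 library equal to 0.164 to 0.202 CPM. The groups overlapped, the counts were too few to test, and 18.7% of the 50-base stretches of Ovol1 are shared with the opposite-strand gene Gm31166 (19.6% with any other gene). Ovol2, its close relative, had 0 counts.

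Over the 8 tested members 4 log2 fold changes were positive and 4 negative, with a median of -0.02, against a median of 0.00 over all tested genes. The call rule gave 0 members in edgeR, in DESeq2 (where 5 members had an adjusted p) and in limma voom. An unadjusted p under 0.05 was reached by 2 members in edgeR (Snai2 lower and Prrx1 higher in NE), 0 in DESeq2 and 2 in limma voom. Over all tested genes 17.3% reached it in edgeR. The groups did not overlap for 5 of the 8 (Snai1 and Prrx1 higher in NE, and Snai2, Zeb1 and Esrp2 lower), beside 49.2% of all tested genes, 24.6% with NE higher and 24.6% with NE lower. With the trend on transcript length removed, Prrx1 was at 0.32 (adjusted p = 0.164) and Snai2 at -0.32 (adjusted p = 0.212), and 0 members were called. Removing the trend moved the median of all tested genes to 0.03.

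**Figure D2:**
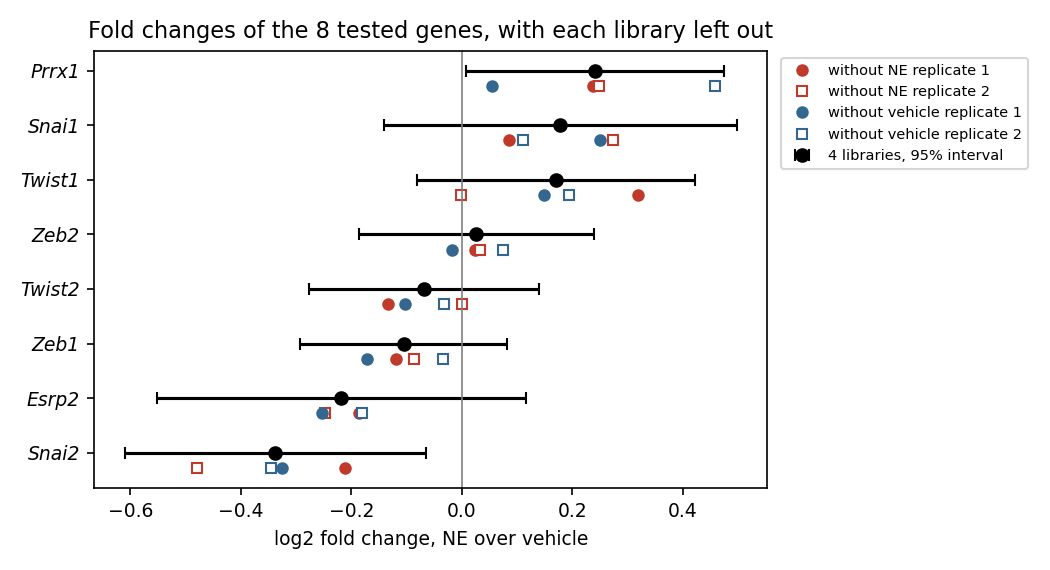
Log2 fold change, NE over vehicle, of the 8 tested EMT regulator genes, with 95% intervals from edgeR; small points leave out 1 library each. The intervals of Snai2 and Prrx1 exclude 0 without adjustment, and the points of Prrx1 run between 0.05 and 0.46.

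Other factors that favour the mesenchymal state were looked at beside the members, in a list of 18 genes. Of the list 11 could be tested. EdgeR called 0, while 6 had an unadjusted p under 0.05, all with higher values in NE. Over all tested genes 7.48% did so in that direction. The list was chosen with earlier results of these data known, so this difference in share is described and not tested. The median log2 fold change of the 11 was 0.25 (0.23 with the length trend removed, when that of all tested genes was 0.03). DESeq2, with an adjusted p for 8, called 0 (3 at an unadjusted p under 0.05) and limma voom called 1, Hmga2. Hmga2, a chromatin protein of embryonic and mesenchymal cells that acts upstream of Snai1 and Twist1, had 211 and 205.5 CPM in NE, against 126.5 and 179 CPM in vehicle. All its NE values were above all vehicle values, and the first vehicle library was the lowest. The log2 fold change was 0.45 ± 0.11 (edgeR adjusted p = 0.0513). It was 0.22 without the first vehicle library and 0.72 without the second, in fits that leave a single vehicle library. The first vehicle library was thus the lowest for both Hmga2 and Prrx1.

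Sox4, a SOX factor that acts with TGF-beta in transitions, had 34.3 and 35.3 CPM in NE, against 26.7 and 29.1 CPM in vehicle (log2 fold change 0.32 ± 0.10, edgeR adjusted p = 0.112). Sox9, which works with Snai2 in neural crest, had 3.72 and 3.61 CPM in NE, against 1.81 and 1.95 CPM in vehicle (0.96 ± 0.32, adjusted p = 0.134). Foxf2 had 26.8 and 26.5 CPM in NE, against 21.2 and 21.8 CPM in vehicle (0.31 ± 0.11, adjusted p = 0.15). In each of these genes the replicates lay close together and the groups did not overlap. Over all tested genes, 24.6% had groups apart with NE higher. These genes were named for the small p-values they had in the list, and none was called. Prrx2, the paralogue of Prrx1, had 34.3 and 32.8 CPM in NE, against 28.8 and 26.9 CPM in vehicle (0.27 ± 0.10, adjusted p = 0.181). Unlike Prrx1, its vehicle libraries lay close to each other. Snai3, Foxc2, Gsc and Msx2 of the list had 0 counts.

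Factors that keep the epithelial state, as Ovol1 does, were mostly low, but Klf4 and Foxa2 lay above every member in level per kb. Foxa2 averaged 31.5 CPM per kb, against 18.7 for Twist2, the highest member. Of 15 such genes 3 had 0 counts, 7 could be tested and 3 reached a mean of 10 CPM. The grainyhead gene Grhl2 had 19 counts in all and the ETS gene Elf3 13. The stem cell and barrier factor Klf4 had the highest level per kb of the list (56.5 CPM per kb), with 168.1 and 155.7 CPM in NE, against 191.9 and 168.6 CPM in vehicle (log2 fold change -0.16 ± 0.08, edgeR adjusted p = 0.311). Rbm47, an RNA-binding protein that acts beside the ESRP proteins, had 14.9 and 15.6 CPM in NE, against 6.32 and 18.7 CPM in vehicle. Its vehicle libraries stood on either side of both NE libraries. EdgeR, limma voom and DESeq2 (where 2 of the 7 had an adjusted p) called 0, and 0 reached an unadjusted p under 0.05 in edgeR.

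The SNAI and ZEB proteins repress through co-repressors, and all 14 of the listed co-repressor genes were tested. EdgeR, limma voom and DESeq2 called 0 of them. Hdac1, a histone deacetylase recruited by SNAI1, was the one gene with an unadjusted edgeR p under 0.05. That is 7.14% of the list, beside 17.3% of all tested genes. Hdac1 had 184 and 209.8 CPM in NE, against 172 and 163 CPM in vehicle (log2 fold change 0.23 ± 0.08, adjusted p = 0.129). SNAI1 protein is set largely by kinases and ubiquitin ligases, which RNA levels do not report on. All 12 genes listed for SNAI1 stability were tested and the same tools called 0 (10 had an adjusted p in DESeq2). Csnk1a1, a kinase gene, was the one with an unadjusted edgeR p under 0.05 (0.16 ± 0.07, adjusted p = 0.249). That is 8.33% of the list, beside 17.3% of all tested genes.

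The listed epithelial genes ranged between 0 counts and high levels. Of 33 genes of junctions, polarity and simple epithelia 9 had 0 counts in all libraries, among them the adhesion gene Epcam, the claudin genes Cldn3, Cldn4 and Cldn7, and Crb3. Cdh1, the E-cadherin gene and classical target of the SNAI and ZEB proteins, had 18 counts in all. The keratin genes of simple epithelia were abundant: Krt8 averaged 460 and Krt18 422 CPM per kb, against 0.0757 CPM per kb for Cdh1. Krt8 had 901 and 951 CPM in NE, against 853 and 895 CPM in vehicle (log2 fold change 0.08 ± 0.07, edgeR adjusted p = 0.562).

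**Figure D3:**
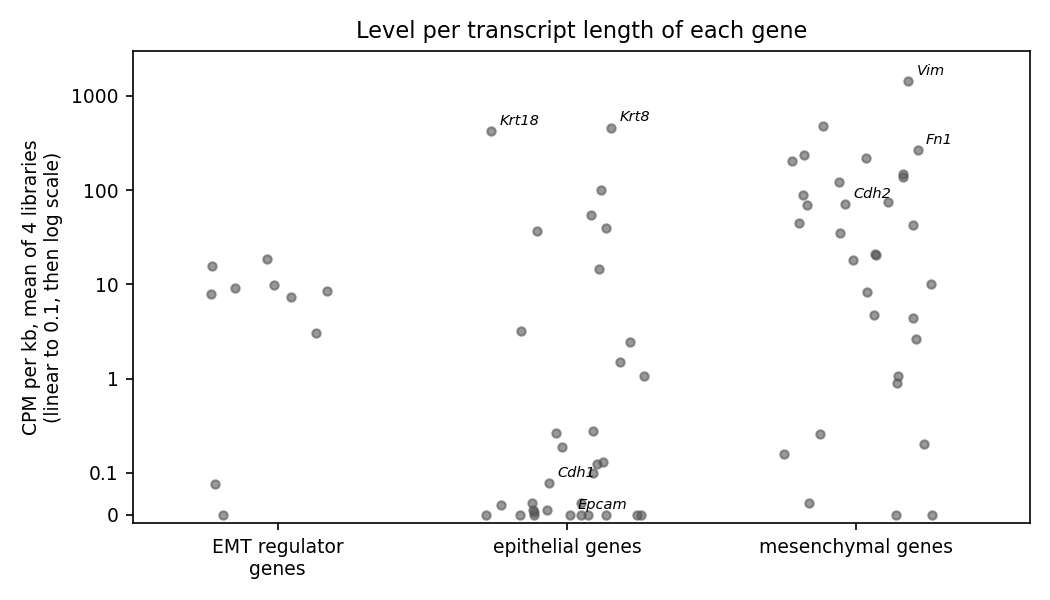
Mean CPM per kb over the 4 libraries (axis linear at the lowest levels and logarithmic above) of the EMT regulators, epithelial genes and mesenchymal genes, each point a gene. Twist2 at 18.7 and Esrp2 at 3.06 CPM per kb span the tested regulators, between Cdh1 at 0.0757 and Krt8 at 460.

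Among 13 epithelial genes with enough counts, the calls were 0 in edgeR, limma voom and DESeq2 (7 with an adjusted p). In edgeR 2 of them, both lower in NE, had an unadjusted p under 0.05, beside 9.82% of all tested genes in that direction. Dsp, the desmoplakin gene of desmosomes, had 7.82 and 6.39 CPM in NE, against 11.4 and 11.2 CPM in vehicle (-0.68 ± 0.18, adjusted p = 0.066). Krt19 had 148 and 129 CPM in NE, against 152 and 201.5 CPM in vehicle (-0.35 ± 0.10, adjusted p = 0.0929). For both genes the groups did not overlap, as for 49.2% of all tested genes, and Krt19 varied more between the vehicle libraries.

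The letters bound by SNAI and ZEB proteins, the E-box CAGGTG or its reverse complement CACCTG, were looked for in the 250 bases before each gene's start in the RefSeq promoter table (GRCm38.p6). At least 1 was found in 5657 of 32851 promoters of all genes (17.2%). For epithelial genes it was 18 of 30 promoters (60%, from 16 of the 23 genes in the table), and for mesenchymal genes 0 of 19 promoters (17 of 32 genes). Cdh1 had no promoter in the table and was not searched. Median GC content was 60.6% in the epithelial and 55.6% in the mesenchymal promoters, against 52.4% in all. The split by level was made after the values were seen: 7 of 8 epithelial genes with 0 counts held the letters, as did 6 of 10 genes above 0 counts and under 10 CPM and 3 of 5 genes at a mean of 10 CPM or more (Krt8, Krt18 and F11r). The letters are a description of the window, not sites shown to be bound.

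Of the members, 5 of 10 were in the table, with 8 promoters, and 1 promoter held an E-box, that of Snai1. It is printed with those of an epithelial gene at 0 counts (Epcam) and an abundant one (Krt8), since all 3 hold the letters while their levels differ. Each run is the 250 bases before the start on the gene's strand, 5′ to 3′, and capitals mark CAGGTG or CACCTG. The Snai1 window is chr2:167537945-167538194 on the plus strand, with CACCTG starting 126 bases before the start. The Epcam window is chr17:87635729-87635978 on the plus strand, with E-boxes starting 187 and 19 bases before it. The Krt8 window is chr15:102004343-102004592 on the minus strand, with CACCTG starting 111 bases before it.
Snai1: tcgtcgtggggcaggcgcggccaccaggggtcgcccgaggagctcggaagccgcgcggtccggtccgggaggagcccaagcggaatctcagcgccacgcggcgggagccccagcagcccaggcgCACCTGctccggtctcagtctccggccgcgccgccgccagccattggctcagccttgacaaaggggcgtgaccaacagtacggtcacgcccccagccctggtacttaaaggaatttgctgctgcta
Epcam: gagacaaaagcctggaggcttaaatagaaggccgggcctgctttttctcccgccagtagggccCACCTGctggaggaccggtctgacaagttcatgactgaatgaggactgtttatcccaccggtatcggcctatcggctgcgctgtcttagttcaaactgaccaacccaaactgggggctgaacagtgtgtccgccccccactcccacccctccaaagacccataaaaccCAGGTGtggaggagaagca
Krt8: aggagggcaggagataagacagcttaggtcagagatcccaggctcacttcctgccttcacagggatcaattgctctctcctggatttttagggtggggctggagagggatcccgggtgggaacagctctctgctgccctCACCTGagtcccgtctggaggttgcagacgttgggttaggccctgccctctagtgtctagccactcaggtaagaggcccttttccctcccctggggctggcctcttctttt

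Mesenchymal genes, which PRRX1 and the TWIST proteins favour, were mostly present. Of 32 genes 27 could be tested, 22 reached 10 CPM and the calls were 0 in edgeR, limma voom and DESeq2 (22 with an adjusted p). In 19 of the 27 the log2 fold change was negative, and 6 had an unadjusted edgeR p under 0.05, all lower in NE, beside 9.82% of all tested genes in that direction. Vim, the filament gene vimentin, had 2691 and 2737 CPM in NE, against 3142 and 2686 CPM in vehicle (-0.10 ± 0.08, adjusted p = 0.534). Cdh2, N-cadherin, had 282 and 286 CPM in NE, against 346.5 and 311 CPM in vehicle (-0.21 ± 0.07, adjusted p = 0.137). Fn1, fibronectin, averaged 267 CPM per kb and was not called (-0.05, adjusted p = 0.813). With the length trend removed the list's median was -0.02 and that of all tested genes 0.03, against -0.06 for the list and 0.00 for all genes without that step, so the list kept about the same distance below all genes. In that fit 1 gene had an unadjusted p under 0.05. The summed fibroblast markers, all of which are also in this list, were lower in both NE libraries than in both vehicle libraries, and their part in these values was not tested. Without the second vehicle library 7 genes were called lower, without the first 1 was, and without either NE library 0 were.

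The list of ESRP-linked genes holds genes whose transcripts are spliced differently in epithelial and mesenchymal cells. It also holds the splicing regulator genes Rbfox2, Qki and Mbnl1. Of the list 11 of 11 were tested and 0 called in edgeR, limma voom or DESeq2. In edgeR 1, Arhgef11, had an unadjusted p under 0.05, which is 9.09% of the list, beside 17.3% of all tested genes. Arhgef11 had 52.4 and 50.2 CPM in NE, against 60.8 and 58.9 CPM in vehicle (-0.22 ± 0.08, edgeR adjusted p = 0.177). Counts per gene do not show which isoforms were made. Fgfr2, whose exon choice is the classical ESRP readout, was at 39.0 and 45.7 CPM in NE, against 42.3 and 40.9 CPM in vehicle (0.03 ± 0.10, adjusted p = 0.92).

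TGF-beta signals are among the best-known inducers of Snai1, Zeb1 and Twist1, and BMP genes were listed with those of TGF-beta. Of 27 pathway genes 26 were tested, and 1, Eng, was called, beside 1.57% of all tested genes (1.23% lower in NE). In 18 of the 26 the log2 fold change was negative. An unadjusted edgeR p under 0.05 was reached by 4, all lower in NE. That is 15.4% of those tested, beside 9.82% of all tested genes in that direction. Eng, the co-receptor endoglin, fell in NE, with 15.6 and 11.9 CPM in NE, against 19.5 and 22.9 CPM in vehicle (log2 fold change -0.63 ± 0.15, edgeR adjusted p = 0.0431). Both NE libraries were below both vehicle libraries, and the call was lost without the second NE library (log2 fold change -0.44, adjusted p = 0.616), without the first (-0.83, adjusted p = 0.0611), under scaling by total counts (-0.65, adjusted p = 0.0504) and with the length trend removed (-0.57, adjusted p = 0.0866). In DESeq2 Eng had no adjusted p (unadjusted p = 0.00201), and exons of Eng overlap those of Fpgs on the opposite strand. Tgfbr2, the type II receptor gene, had 126 and 120.2 CPM in NE, against 169 and 137 CPM in vehicle (-0.31 ± 0.09, adjusted p = 0.0772). Thbs1, whose product activates latent TGF-beta, had 201 and 156 CPM in NE, against 252 and 206 CPM in vehicle (-0.36 ± 0.11, adjusted p = 0.0888). Acvr1, a BMP receptor gene, had 24.0 and 24.9 CPM in NE, against 29.8 and 31.8 CPM in vehicle (-0.33 ± 0.10, adjusted p = 0.108). These 3 genes were also lower in value in both NE libraries than in both vehicle libraries, as were 24.6% of all tested genes. They were named for the small p-values they had in the list, and none was called. Among the genes named beside the members, exons of Eng, Hmga2, Sox4, Foxf2, Krt8, Dsp, Fn1, Thbs1, Arhgef11, Grhl2, Elf3, Ovol2, Cldn3, Cyp2f2, Bmp4 and Lox overlap a gene on the opposite strand. Those of Col3a1, Fgfr2 and Rbm47 overlap one on the same strand, so the counts of all these genes are uncertain.

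**Figure D4:**
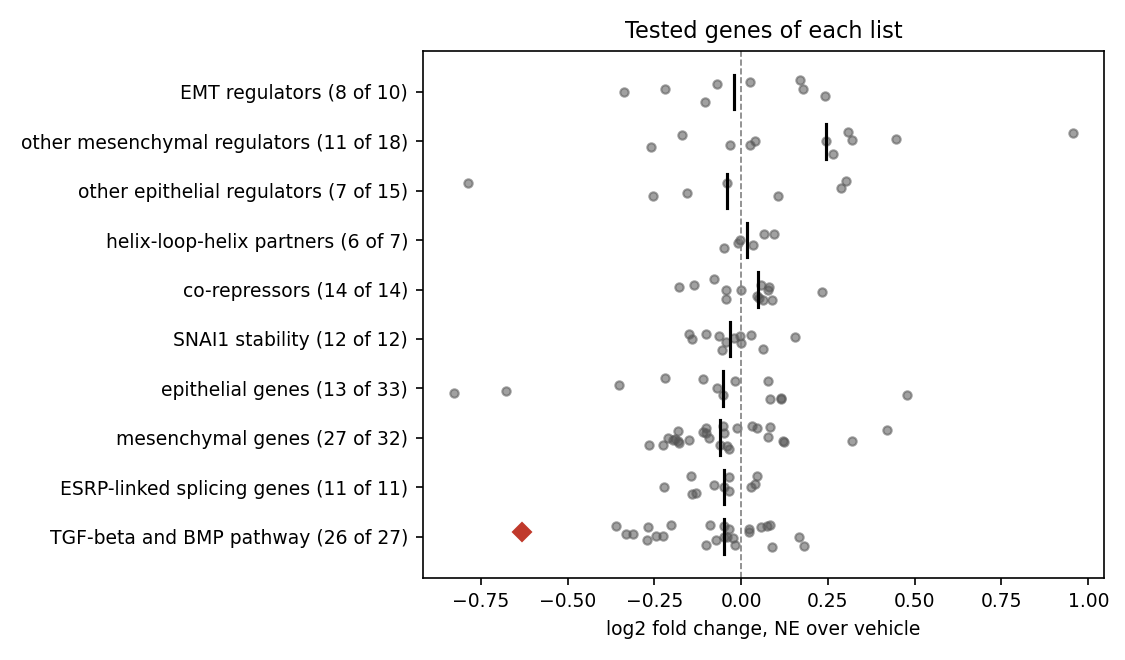
Log2 fold change, NE over vehicle, of every tested gene of each list; the black bar is the list's median, the dashed line the median of all tested genes and the red diamond a called gene. The list of other mesenchymal regulators has a median of 0.25 and the EMT regulators one of -0.02, and Eng is the called gene.

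For each tested member the gene with the nearest profile was sought among 126 tested genes of the other lists, as the smallest root mean square difference in centred log2 CPM over 4 libraries. Zeb2 lay nearest Twsg1 (0.011) and Zeb1 nearest the histone methyltransferase gene Ehmt2 (0.014). Esrp2 was nearest Bmp4 (0.018), Twist2 the kinase gene Slk (0.019) and Prrx1 the TGF-beta target Pmepa1 (0.041). Snai1 was nearest the collagen cross-linking gene Lox (0.048). Twist1 (Hdac1, 0.072) and Snai2 (Acvr1, 0.084) had the least close nearest genes. With 4 libraries, small distances are found for genes that vary little.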

How the data were processed

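The deposited table holds raw counts of reads per gene, as the authors made them, per the file headers and labels. Per the submitters' processing notes, the genome build was GRCm39 (mm39). For aligner, counter, annotation and strandedness, the information is not given in the sources used here. Columns were matched to samples by the library descriptions in the labels. The members and gene lists were chosen with earlier results of these data known.

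Counts were tested with edgeR 4.0.16 (R 4.3.3): filterByExpr (minimum count 10, minimum total 15), TMM scaling, glmQLFit and glmQLFTest with group as the only term, and Benjamini-Hochberg adjustment over 11419 genes. CPM rest on TMM-scaled library totals over the tested genes. Alternatives were DESeq2 1.42.0, limma voom 3.58.1, other scalings and filters, the replicate number as a block, removal of the trend on transcript length (spline with 4 degrees of freedom, prior count 2) and leaving out each library. Transcript lengths, 50-base stretches shared between genes and exon overlaps came from GENCODE M21 (GRCm38), which gave 21973 identifiers a length; no coordinates were carried across builds. Promoters came from RefSeq (GRCm38.p6) and were searched in the 250 bases before each start, without the bases after it. A gene with several starts has several windows. These can lie beyond another start, as for Cldn7, or overlap, as for Crb3, whose E-boxes count in both promoters. The procedure was tested on simulated data.

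Named genes were the members, Cdh1, Epcam, Krt8, Krt18, Vim, Cdh2 and Fn1, up to 4 tested genes of each list (called first, then smallest p), the 2 highest per length, and the 2 nearest in profile to each member. Not all are described. Any other gene named was picked with its values known. DESeq2 gave no adjusted p for 3764 genes, which were left as missing.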

Additional observations from a re-analysis of the deposited data

How the results depend on the processing

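The count of 179 genes called became 309 with no low-count filter, 75 with DESeq2 (65 of them shared), 21 with the length trend removed (5 higher, 16 lower) and 4 to 740 with each library left out. It was 320 (84 higher, 236 lower) with the replicate block; the labels do not say that replicate numbers pair the samples, and the correlation of same-numbered deviations was -0.06. The members called stayed at 0 in every setting with all 4 libraries. With each library left out, log2 fold changes ranged over 0.08 to 0.27 for Snai1, -0.48 to -0.21 for Snai2, -0.17 to -0.03 for Zeb1, -0.25 to -0.18 for Esrp2, -0.0188 to 0.074 for Zeb2, -0.0017 to 0.32 for Twist1, -0.13 to 0.00068 for Twist2 and 0.054 to 0.46 for Prrx1. Directions turned for Twist1 (-0.0017) and Twist2 (0.00068) without the second NE library and for Zeb2 (-0.0188) without the first vehicle library, all close to 0.

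For other mesenchymal regulators the count of 0 became 1 with no filter, the stricter filter, limma voom and the replicate block. For epithelial genes it was 2 with no filter. Epithelial regulators and co-repressors gave 0 to 1 and mesenchymal genes 0 to 7 in that way. TGF-beta and BMP genes gave 1, but 0 with total counts, DESeq2 or the length trend removed, 2 with no filter and 3 with the replicate block. Levels per kb with the longest transcript were 3.22 for Zeb2, 14.2 for Twist2 and 7.49 for Prrx1. Of 261 values in all, 215 kept their direction and side of the threshold or moved little. With 2 libraries per group, depth limits Ovol1, Esrp1 and other genes near 3 counts. Apart from the named values the cause of each change was not tested.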
